A study of Homo sapiens with 6 samples.

Results

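The 47 germline and meiosis genes examined here are autosomal genes whose expression is normally restricted to germ cells, and they were taken by gene symbol from a table of 60623 genes. All 47 symbols were found. They were followed by RNA-Seq in TC28a2 cells, an immortalized line of human chondrocytes, which are the cells that build cartilage. Cells received either 2 μM of mocetinostat, an inhibitor of class I histone deacetylases (HDACs), or only its solvent, DMSO, and were collected after 24 hours; each condition had 3 samples, described by the study as independent experiments. Both conditions were the same line, so that differences among donors or cell types were not sampled. Total counts per sample were 11031132, 4873426 and 6926619 with DMSO and 5089542, 1619344 and 2417199 with mocetinostat, so the mocetinostat libraries were shallower. Values per sample are given below in the order of replicates 1, 2 and 3 of each condition.

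Germ cells make sperm and eggs, and in meiosis they pair the homologous chromosomes, break and repair their DNA by recombination, and hold the chromosomes together with a cohesin complex of their own. They also silence transposons with small RNAs called piRNAs, which PIWI proteins carry. Somatic cells keep most of these genes silent. The known repressors include DNA methylation, histone H3 lysine 9 methylation, and PRC1.6, a Polycomb complex that is brought to germline promoters by E2F6 and by the MGA/MAX pair and that can work together with HDAC1 and HDAC2.

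Because those factors read short DNA motifs, the 250 bases upstream of each start site in RefSeq were searched on both strands for TCCCGC, an E2F-type motif, and for CACGTG, an E-box of the kind that MAX partners bind; these 6-base words do not overlap each other. Promoter sequences were matched for 40 of the 47 genes, and TEX14, TEX15, HORMAD1, PIWIL2, PIWIL4, MEIOB and SPATA16 were not among them. TCCCGC was found in at least 1 start window of 14 of the 40 genes (35.0%), against 36.8% of all 15324 genes with a promoter in the RefSeq table. CACGTG was found in 9 (22.5%), against 9.78% of all genes. Both words stood upstream of DAZL, SYCE1 and STAG3, which are 7.5% of the 40, against 4.35% of all genes. The sequences below (build GRCh38.p14) were chosen after the values were seen. STAG3, the meiotic cohesin subunit, is shown as a promoter with both words, at the downstream one of its start sites (chr7:100177668-100177917, plus strand); TCCCGC begins at position -6 and CACGTG at position -171 from the start site, and both are in capitals. RAD21L1 (chr20:1225794-1226043, plus strand) and TDRD6 (chr6:46687635-46687884, plus strand) are shown as genes with some of the largest fold changes in the set, and neither word was found in their windows.
STAG3: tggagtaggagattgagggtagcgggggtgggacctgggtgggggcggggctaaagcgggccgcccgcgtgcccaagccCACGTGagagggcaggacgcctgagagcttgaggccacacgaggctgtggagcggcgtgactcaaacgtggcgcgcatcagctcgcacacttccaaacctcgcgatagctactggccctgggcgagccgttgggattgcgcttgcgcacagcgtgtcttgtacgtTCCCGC
RAD21L1: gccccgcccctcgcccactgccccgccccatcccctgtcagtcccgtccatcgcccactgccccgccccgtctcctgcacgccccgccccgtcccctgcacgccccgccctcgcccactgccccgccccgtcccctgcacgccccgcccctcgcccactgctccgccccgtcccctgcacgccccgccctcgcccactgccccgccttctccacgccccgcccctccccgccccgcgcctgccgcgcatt
TDRD6: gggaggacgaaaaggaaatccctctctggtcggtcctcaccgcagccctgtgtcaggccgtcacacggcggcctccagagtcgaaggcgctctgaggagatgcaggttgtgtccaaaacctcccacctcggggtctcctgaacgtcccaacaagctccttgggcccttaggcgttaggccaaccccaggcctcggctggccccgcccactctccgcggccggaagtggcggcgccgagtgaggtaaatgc
The start window further upstream of STAG3 held TCCCGC alone. A match describes the letters only, and no binding was measured.

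In both conditions the set was expressed at a very low level. Of the 47 genes, 46 had at least 1 count in some sample, SYCE3, a part of the synaptonemal complex, being at 0 throughout. In 32 of the 47 genes (68.1%) every sample had fewer than 10 counts, against 31.4% of 18975 autosomal protein-coding genes, and in 20 (42.6%) no sample had more than 3 counts, against 21.5%. Only 12 genes were detected in all 6 samples. With DMSO, HORMAD1, DPPA4, TDRD1 and SYCE3 had 0 counts in all 3 samples, which allows up to 0.131 CPM (counts scaled to the library total) over the pooled libraries (3 counts of 22831177). With mocetinostat DDX4, SMC1B, TDRD9 and SYCE3 had 0 counts, which allows up to 0.329 CPM (3 counts of 9126085); these limits cover counting error only.

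At the same depth, more of the genes were detected in every mocetinostat sample than in any DMSO sample. At least 1 count was seen for 31, 23 and 29 of the 47 genes with DMSO and for 35, 24 and 31 with mocetinostat, although the mocetinostat libraries held fewer reads. At the total of the smallest library, 1619344 counts, the expected numbers were 15.7, 15 and 17.3 with DMSO and 26.2, 24 and 27.1 with mocetinostat. The conditions did not overlap at equal depth, with 31.9% to 36.8% of the genes expected to be seen with DMSO and 51.1% to 57.6% with mocetinostat. Genes outside the set showed the same order. Among 6828 other autosomal protein-coding genes that were too low for the filter on expression described below, 18.2% to 19.9% were expected to be seen with DMSO and 36.0% to 40.3% with mocetinostat. Some of the 47 genes passed that filter, so these sets are not alike.

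Summed over the 47 genes, the level was 24.8, 23.1 and 23.1 CPM with DMSO (23.7 ± 0.959, mean ± SD, n = 3) and 103, 82.4 and 99.5 CPM with mocetinostat (95 ± 11, n = 3). CPM here are normalized with the trimmed mean of M values (TMM). TEX15 alone made up 27.4%, 18.9% and 22.9% of the set's counts with DMSO and 60.0%, 58.6% and 53.8% with mocetinostat. Without TEX15, the other 46 genes summed to 18.0, 18.7 and 17.8 CPM with DMSO (18.2 ± 0.483) and to 41.2, 34.1 and 46 CPM with mocetinostat (40.4 ± 6.0). The conditions did not overlap with or without TEX15. The ratio of the means without TEX15 was 2.22, and for the 6828 other low genes it was 2.91 (1340 ± 86.3 CPM against 3900 ± 187 CPM, n = 3 each), so those genes had the larger ratio. These sets are not alike: the 46 include TEX14, MSH5, REC8 and SYCP2, which passed the filter. The 6828 are only genes that it removed. In bulk RNA, more cells with a transcript and more transcript per cell cannot be told apart.

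**Figure D1:**
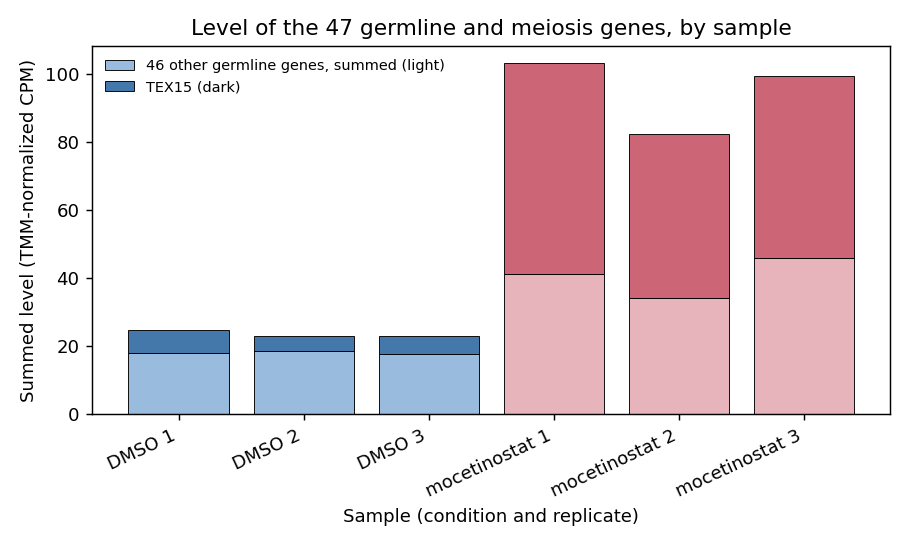
Summed level of the 47 germline and meiosis genes in each sample, in TMM-normalized CPM, with the dark part of each bar for TEX15 and the light part for the other 46 genes (blue, DMSO; red, mocetinostat). The total was 23.1 to 24.8 CPM in the DMSO samples and 82.4 to 103 CPM in the mocetinostat samples, with TEX15 at 53.8% to 60.0% of the counts in the mocetinostat samples.

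Differential expression was tested with edgeR's quasi-likelihood test over 13966 genes that passed a filter on low counts, and a gene was called where its Benjamini-Hochberg adjusted p was below 0.05 and its log2 fold change exceeded 1 in either direction. Only 5 of the 47 germline genes (10.6%) passed the filter, against 63.8% of autosomal protein-coding genes: TEX15, TEX14, MSH5, REC8 and SYCP2. Mocetinostat upregulated TEX15 and TEX14, while MSH5, REC8 and SYCP2 were not called and none of the 5 was called lower. Over all genes tested, 20.2% were called higher and 8.18% lower. At an unadjusted p under 0.05, edgeR gave 3 of the 5 higher and 0 lower, against 34.0% and 33.0% of all genes tested. The filter asked for 2.01 CPM in 3 samples, and TEX14 and SYCP2 reached that in 0 DMSO samples and in all 3 mocetinostat samples, so both passed only through the condition in which they were higher and nothing is read from the share of the 5 that was called.

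To read the genes that the filter removed, all genes with at least 1 count were also fitted with the scaling of the filtered genes (called the unfiltered fit below), an alternative chosen after seeing the data. Of the 46 germline genes in it, 5 were called higher, TEX15, TEX14, RAD21L1, TDRD6 and PIWIL2, against 9.66% of all 40504 genes, and 0 were called lower, against 2.87%. DESeq2 called the same 5 genes higher and 0 lower, against 8.33% and 2.89% of the genes it tested. At an unadjusted p under 0.05 the unfiltered fit gave 9 (19.6%) higher and 0 lower, against 19% and 11.8% of all genes in it, and DESeq2 gave 7 (15.2%) higher and 0 lower, against 13.7% and 10.5%. The log2 fold change was above 0 for 37 of the 46, with a median of 1.31 against 0.49 over all genes in that fit. Genes that start low tend to move up in these data, however. Of the 41 members with counts that the filter removed, 32 (78.0%) had a higher pooled rate with mocetinostat. So did 79.2% of 5452 autosomal protein-coding genes of that kind, from which the members were not taken out. Of the 29 germline genes with at most 3 counts in every DMSO sample, 1 was called higher in the unfiltered fit (TDRD6), against 14.2% of 5535 autosomal protein-coding genes that started as low.

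**Figure D2:**
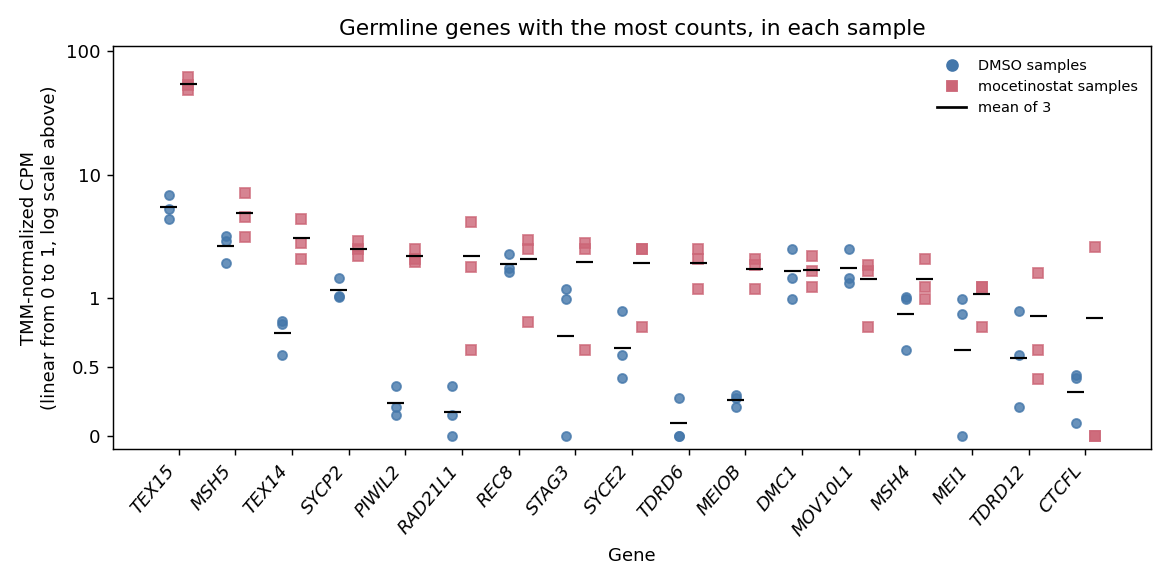
Level of 17 germline genes in each sample, in TMM-normalized CPM on an axis that is linear up to 1 and logarithmic above, with circles for DMSO, squares for mocetinostat and bars for the mean of 3. The genes are the 15 with at least 10 counts in some sample plus TDRD6 and MEIOB. TEX15 rose from 5.49 to 54.6 CPM on average, and every other gene stayed under 10 CPM in every sample.

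Among the 9 recombination genes, TEX15 had 519 of the 623 counts with mocetinostat and 132 of the 283 with DMSO. TEX15 (ENSG00000133863; GRCh38 chr8:30831544-30913008, minus strand) encodes a testis-expressed protein that is needed for meiotic double-strand break repair and for piRNA-guided silencing in the mouse. Its counts were 75, 21 and 36 with DMSO and 312, 78 and 129 with mocetinostat. Its CPM were 6.78, 4.37 and 5.31 (5.49 ± 1.22) against 61.9, 48.3 and 53.5 (54.6 ± 6.82, n = 3 each), so that the lowest mocetinostat sample lay well above the highest DMSO sample. The log2 fold change was 3.27 (SE 0.19, adjusted p = 3.66e-25, edgeR), and the pooled rate ratio was 9.84, with a 95% exact interval for counting error of 8.11 to 12.0. TEX15 was called higher in all 16 fits, with log2 fold changes of 3.02 to 3.48.

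Per kilobase of exon, TEX15 had by far the highest mean level of the set with mocetinostat. Its level per kilobase rose from 0.462 to 4.60 CPM. The next levels with mocetinostat were those of SYCE2 (1.30 CPM per kilobase), MEIOB (0.852) and MSH5 (0.780), whose spreads between samples overlap. With DMSO TEX15 did not stand out, since DMC1 was at 0.562, REC8 at 0.493, SYCE2 at 0.432 and MSH5 at 0.424 CPM per kilobase.

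MSH5, which with MSH4 forms the MutSγ complex that stabilizes crossover intermediates, had counts of 35, 14 and 13 with DMSO and 23, 5 and 17 with mocetinostat. In CPM these were 3.17, 2.92 and 1.92 against 4.56, 3.1 and 7.05, and mocetinostat replicate 2 lay within the range of the DMSO samples. The log2 fold change of 0.88 (SE 0.43, adjusted p = 0.0695, edgeR) did not pass the test; it was 1.02, and called, without mocetinostat replicate 2. Of the exon bases of MSH5, 44.4% are shared with the read-through gene MSH5-SAPCD1 on the same strand. Its partner MSH4 had 11, 3 and 7 counts against 5, 2 and 5, with overlapping CPM and an unfiltered log2 fold change of 0.60 (adjusted p = 0.641, edgeR).

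The other recombination genes were close to the limit of detection. DMC1, the meiotic strand-exchange recombinase, had 11, 12 and 10 counts with DMSO against 11, 2 and 4 with mocetinostat, an unfiltered log2 fold change of 0.19 (adjusted p = 0.844, edgeR). MEI1, needed for the formation of meiotic breaks, had 11, 0 and 6 against 4, 2 and 3 counts, and the conditions overlapped for both genes. MEIOB and PRDM9 are named here because of their values. MEIOB, a single-strand DNA binding protein of meiotic recombination, had 3, 1 and 2 against 6, 3 and 5 counts, which did not overlap in CPM (0.208 to 0.295 against 1.19 to 2.07). Its log2 fold change was 2.55 in the unfiltered fit (adjusted p = 0.0637, edgeR), and 77.7% of its exon bases are shared with ENSG00000289722 on the same strand, so the reads cannot be told apart without knowing how shared reads were assigned. PRDM9, the histone methyltransferase that places recombination hotspots, was the only member lower without overlap, with 3, 4 and 2 against 1, 0 and 0 counts (log2 fold change of -1.91, SE 1.76, adjusted p = 0.463, unfiltered edgeR fit). SPO11, which makes the breaks, and SPATA22, the partner of MEIOB, had at most 3 counts in any sample.

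Of the 6 genes of the meiotic cohesin and chromosome axis, RAD21L1 was called in the unfiltered fit and no other was. RAD21L1 (GRCh38 chr20:1226044-1296421, plus strand), a meiosis-specific kleisin that closes the cohesin ring, had 4, 0 and 1 counts with DMSO against 9, 1 and 10 with mocetinostat. In CPM these were 0.362, 0 and 0.147 against 1.78, 0.62 and 4.14, without overlap, although mocetinostat replicate 2 rested on 1 count. It was not tested with the filter, and in the unfiltered fit the log2 fold change was 3.30 (SE 0.97, adjusted p = 0.00377, edgeR), with a pooled rate ratio of 10 (3.64 to 34.1). REC8, the other meiotic kleisin, had 18, 11 and 12 against 15, 4 and 2 counts. Its CPM of 1.63, 2.29 and 1.77 overlapped with 2.97, 2.48 and 0.829, and its log2 fold change was 0.27 (SE 0.54, adjusted p = 0.678, edgeR).

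STAG3, the meiotic cohesin subunit whose promoter is printed above, had 11, 0 and 8 counts against 14, 1 and 6, or 0.995, 0 and 1.18 CPM against 2.78, 0.62 and 2.49. The conditions overlapped through mocetinostat replicate 2. In the unfiltered fit the log2 fold change was 1.42 (SE 0.73, adjusted p = 0.167, edgeR). STAG3 passed the filter in 4 fits that left out 1 sample: it was called without DMSO replicate 3 (1.71) and without mocetinostat replicate 2 (1.67), and not called without DMSO replicate 1 (1.66) or 2 (0.99). With at most 1.18 CPM in any DMSO sample, it entered these fits only through the mocetinostat samples. Nothing is therefore read from those calls. Of its exon bases, 20.8% lie opposite CASTOR3P. SMC1B, the meiotic SMC subunit, and HORMAD1 and HORMAD2, the axis proteins that watch over synapsis, had at most 5 counts in any sample.

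In the piRNA pathway and germ granules, with 12 genes, PIWIL2 and TDRD6 were called higher in the unfiltered fit and none passed the filter. PIWIL2 (GRCh38 chr8:22275316-22357568, plus strand), a PIWI protein of the piRNA cycle, had 4, 1 and 1 counts with DMSO against 10, 4 and 5 with mocetinostat. Its CPM of 0.362, 0.208 and 0.147 against 1.98, 2.48 and 2.07 did not overlap. The log2 fold change was 2.96 (SE 0.96, adjusted p = 0.0102, unfiltered edgeR fit) and the pooled rate ratio 7.92 (3.04 to 24.2). TDRD6, a Tudor-domain protein of the chromatoid body of spermatids, is named because of its values. It had 3, 0 and 0 against 6, 4 and 5 counts, which are 0.271, 0 and 0 against 1.19, 2.48 and 2.07 CPM. Every mocetinostat sample was above every DMSO sample, and the log2 fold change was 3.69 (SE 1.17, adjusted p = 0.0083, unfiltered edgeR fit), with a pooled rate ratio of 12.5 (3.54 to 67.4). It was called in all 7 fits that tested it, with 3.06 without DMSO replicate 3 and 5.86 without DMSO replicate 1, where no DMSO count remains and the fitted value depends on the prior count. The fits that left out a DMSO sample used the filter, which TDRD6 passed only through the mocetinostat samples. Nothing is therefore read from its calls in those fits. The pooled ratios of PIWIL2 and TDRD6 rest on 6 and 3 counts with DMSO, so their intervals are wide.

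The remaining piRNA genes were not called. MOV10L1, the helicase that feeds precursors into the piRNA pathway, had the most counts of them with 16, 12 and 9 against 4, 3 and 4. In CPM these were 1.45, 2.5 and 1.33 against 0.793, 1.86 and 1.66, which overlapped, and the log2 fold change was -0.39 (SE 0.73, adjusted p = 0.699, unfiltered edgeR fit). TDRD12, another Tudor protein, had 10, 1 and 4 against 8, 1 and 1 counts (log2 fold change of 0.68, adjusted p = 0.642, unfiltered edgeR fit). DDX4, the germ cell helicase known as VASA and a standard germ cell marker, had 1, 3 and 0 counts with DMSO and 0 in all 3 mocetinostat samples. The PIWI proteins PIWIL1 and PIWIL4, the PIWI partner GTSF1, the transposon silencing factor MAEL, and the Tudor proteins TDRD1, TDRD5 and TDRD9 stayed under 10 counts, the highest being 9 in 1 mocetinostat sample for PIWIL4.

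Of the 6 genes of the synaptonemal complex, the zipper between paired chromosomes, none was called. SYCP2, a protein of its lateral element, had 16, 5 and 7 counts against 11, 4 and 7. In CPM it was at 1.45, 1.04 and 1.03 with DMSO and 2.18, 2.48 and 2.9 with mocetinostat, without overlap, yet the log2 fold change of 1.01 (SE 0.57, adjusted p = 0.114, edgeR) did not pass. SYCE2, a protein of the central element, had 10, 2 and 4 against 4, 4 and 6 counts (log2 fold change of 1.36, adjusted p = 0.283, unfiltered edgeR fit), and 23.9% of its exon bases lie opposite GCDH. SYCP1, SYCP3 and SYCE1 had at most 4 counts in any sample.

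Of the 8 regulators none passed the filter or was called. CTCFL, known as BORIS, the testis paralog of the insulator protein CTCF, had 1, 2 and 3 counts with DMSO against 13, 0 and 0 with mocetinostat. All of its mocetinostat counts came from replicate 1, and the log2 fold change was 1.86 (SE 1.07, adjusted p = 0.234, unfiltered edgeR fit). The other regulators had at most 4 counts in any sample: DAZL, an RNA-binding protein of early germ cells, BRDT, the testis bromodomain protein, STRA8, which starts meiosis under retinoic acid, the spermatogonial factors SOHLH1 and SOHLH2, and DPPA3 and DPPA4 of the early embryo and germ cells.

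Of the 6 other spermatogenesis genes, TEX14 was upregulated. TEX14 (ENSG00000121101; GRCh38 chr17:58556678-58692055, minus strand) encodes a protein of the bridges that join developing germ cells. It had 9, 4 and 4 counts with DMSO against 14, 7 and 5 with mocetinostat, or 0.814, 0.833 and 0.59 CPM (0.746 ± 0.135) against 2.78, 4.34 and 2.07 CPM (3.06 ± 1.16, n = 3 each). No mocetinostat sample fell into the DMSO range. The log2 fold change was 1.93 (SE 0.60, adjusted p = 0.00358, edgeR) and the pooled rate ratio 3.83 (2.00 to 7.51). That fit admitted TEX14 only through the mocetinostat samples. Its adjusted p was 0.027 in the unfiltered fit and 0.0185 with a filter blind to treatment (both edgeR), and 0.0484 with DESeq2. TEX14 was called in 13 of the 14 fits that tested it. With at most 0.833 CPM in any DMSO sample, it entered every fit with the main filter only through the mocetinostat samples. Nothing is therefore read from that tally. The fit that did not call TEX14, with scaling on all genes without a filter, gave 1.70 (adjusted p = 0.0629, edgeR). SPATA16, an acrosome protein named because of its values, had 0, 1 and 0 against 6, 1 and 2 counts, without overlap in CPM (0.208 at most against 0.62 at least; log2 fold change of 3.67, adjusted p = 0.0835, unfiltered edgeR fit). TEX101, a surface protein of germ cells, ADAD1, an RNA-binding protein of the testis, LDHC, the sperm lactate dehydrogenase, and PGK2, the sperm phosphoglycerate kinase, had at most 3 counts in any sample.

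Counted over the whole set, CPM did not overlap between conditions for 8 of the 46 detected genes that were higher with mocetinostat (TEX15, TEX14, RAD21L1, TDRD6, PIWIL2, MEIOB, SYCP2 and SPATA16) and for 1 that was lower (PRDM9), which are 17.4% and 2.17% of the 46, against 16.2% and 12.7% of all 40504 genes with at least 1 count. With a filter on the summed count that is blind to the treatment, 18 members were tested and 6 called higher, the 5 of the unfiltered fit and MEIOB, where 19.2% of 18245 genes were called higher and 8.34% lower.

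**Figure D3:**
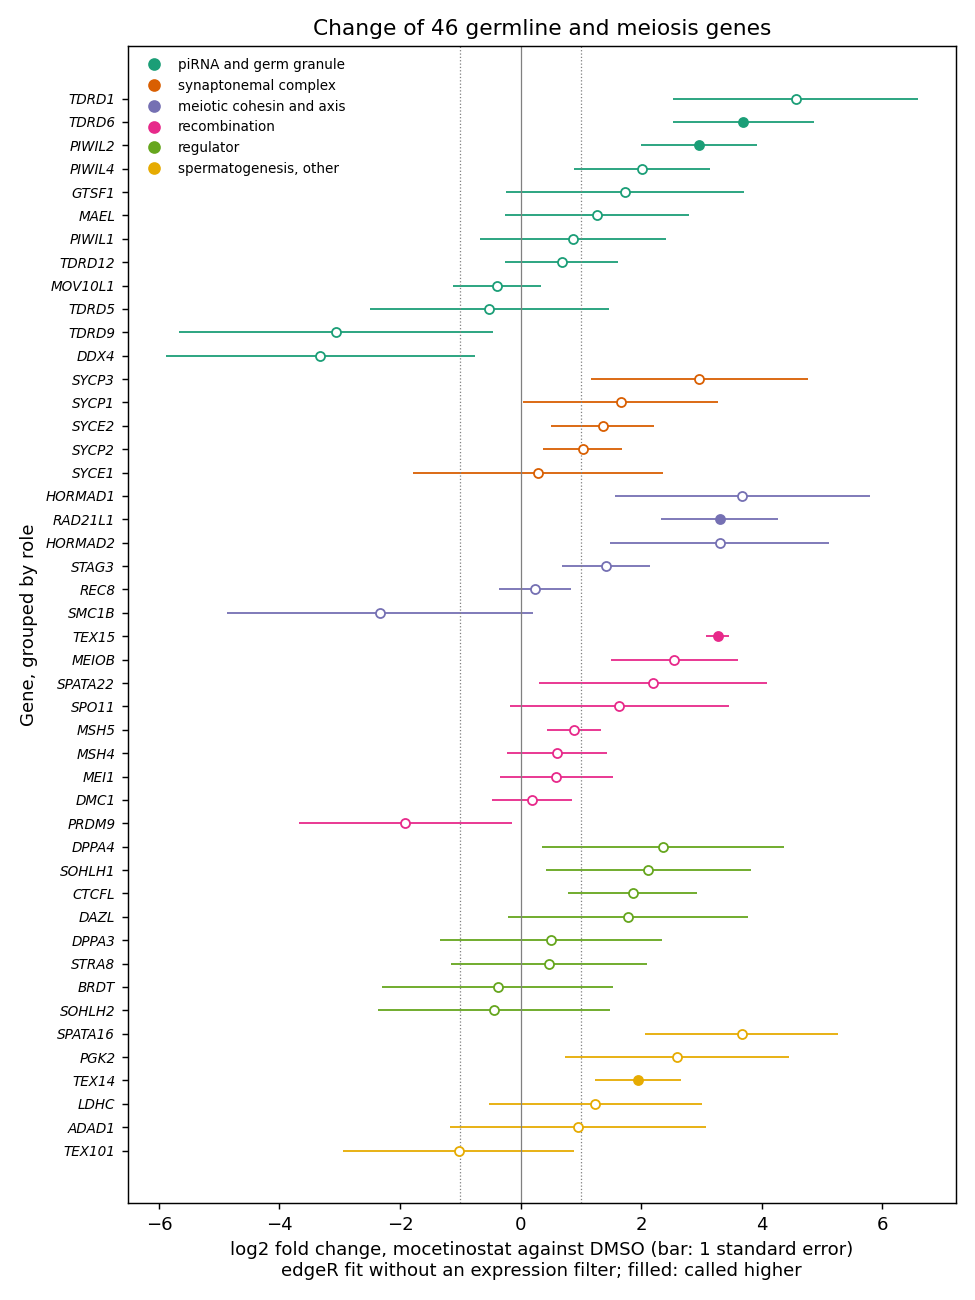
Log2 fold change of 46 germline genes, mocetinostat against DMSO, with bars of 1 standard error, from the edgeR fit without a filter on expression; colours give the role, filled points are called higher, and dotted lines mark a log2 fold change of 1. TEX15 at 3.27 has the shortest bar (0.19), while genes with a few counts have bars of about 2, and no gene is called lower.

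Many of the germline proteins have a relative that works in somatic cells, and 23 of these relatives were compared. All 23 were tested, and 1 was called higher and 3 lower, against 20.2% and 8.18% of all genes tested. Their median log2 fold change was -0.54, against -0.00 over all genes tested. The called ones that fell were relatives of STAG3 and CTCFL. STAG2, a subunit of mitotic cohesin, was at 218, 208 and 206 CPM with DMSO and at 73.7, 75.0 and 76.3 with mocetinostat (log2 fold change of -1.49, SE 0.10, adjusted p = 2.41e-22, edgeR). STAG1, its alternative in the complex, was at 163, 133 and 131 against 59.9, 63.2 and 48.5 CPM (-1.32, SE 0.12, adjusted p = 1.26e-16), and 21.2% of its exon bases lie opposite PCCB. CTCF was at 138, 149 and 159 against 63.6, 75.6 and 63.4 CPM (-1.16, SE 0.11, adjusted p = 2.60e-15).

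Conditions did not overlap for STAG2, STAG1 or CTCF. RAD21, the mitotic kleisin and relative of RAD21L1 and REC8, had a log2 fold change of -0.89 (SE 0.08, adjusted p = 4.21e-16, edgeR), short of the threshold on size, and it is named because RAD21L1 was called. AGO2, a relative of the PIWI proteins, was at -0.88 (SE 0.09) and not called either. The called relative that rose was ADARB1, an RNA-editing enzyme related to ADAD1, at 24.5, 24.4 and 26.7 against 62.6, 49.6 and 55.5 CPM (1.18, SE 0.14, adjusted p = 4.95e-11, edgeR). With mocetinostat the mean level per kilobase of exon was still higher for STAG2 (4.69 CPM) than for STAG3 (0.319 CPM).

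Among 22 genes of the complexes known to repress germline genes, all were tested, and their median log2 fold change was -0.22. Of these 2 were called lower and 1 higher, against 8.18% and 20.2% of all genes tested, so the number called lower is near the share of all genes. The lower genes both belong to PRC1.6. L3MBTL2, a chromatin reader of that complex, was at 47.9, 44.1 and 50.3 CPM with DMSO and 13.9, 19.2 and 18.2 with mocetinostat (log2 fold change of -1.54, SE 0.17, adjusted p = 1.32e-12, edgeR). PCGF6, its Polycomb ring-finger subunit, was at 24.5, 26.2 and 24.5 against 9.12, 13.6 and 7.87 CPM (-1.36, SE 0.22, adjusted p = 1.04e-07). The conditions did not overlap for either gene, and 21.4% of the exon bases of L3MBTL2 lie opposite L3MBTL2-AS1. The other genes of the complex were not called. RYBP was at 0.92 (SE 0.13, adjusted p = 2.51e-09, edgeR) and was called in 2 of 16 fits, CBX3 was at -0.68 (SE 0.10) and YAF2 at -0.64 (SE 0.19). The values were nearer 0 for RNF2 at 0.18 (SE 0.17), RING1 at 0.11 (SE 0.17), E2F6 at 0.36 (SE 0.24), MGA at 0.04 (SE 0.09) and MAX at 0.03 (SE 0.11).

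DNMT3B, a de novo DNA methyltransferase, was the gene called higher, at 20.4, 25.4 and 21.8 against 45.0, 46.5 and 46 CPM (1.04, SE 0.16, adjusted p = 2.42e-08, edgeR). It stood just past the threshold on size and was called in 11 of 16 fits. It was not called by DESeq2, with the blind filter (0.95), when scaled on all genes without a filter (0.79), or without DMSO replicate 1 (0.94) or 3. DNMT1, the maintenance methyltransferase, was at -0.51 (SE 0.08), and the drug's targets HDAC1 and HDAC2 were at 0.24 (SE 0.10) and 0.13 (SE 0.08), none of them called. Whether the lower level of PCGF6 and L3MBTL2 mRNA had a part in the germline values was not tested.

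**Figure D4:**
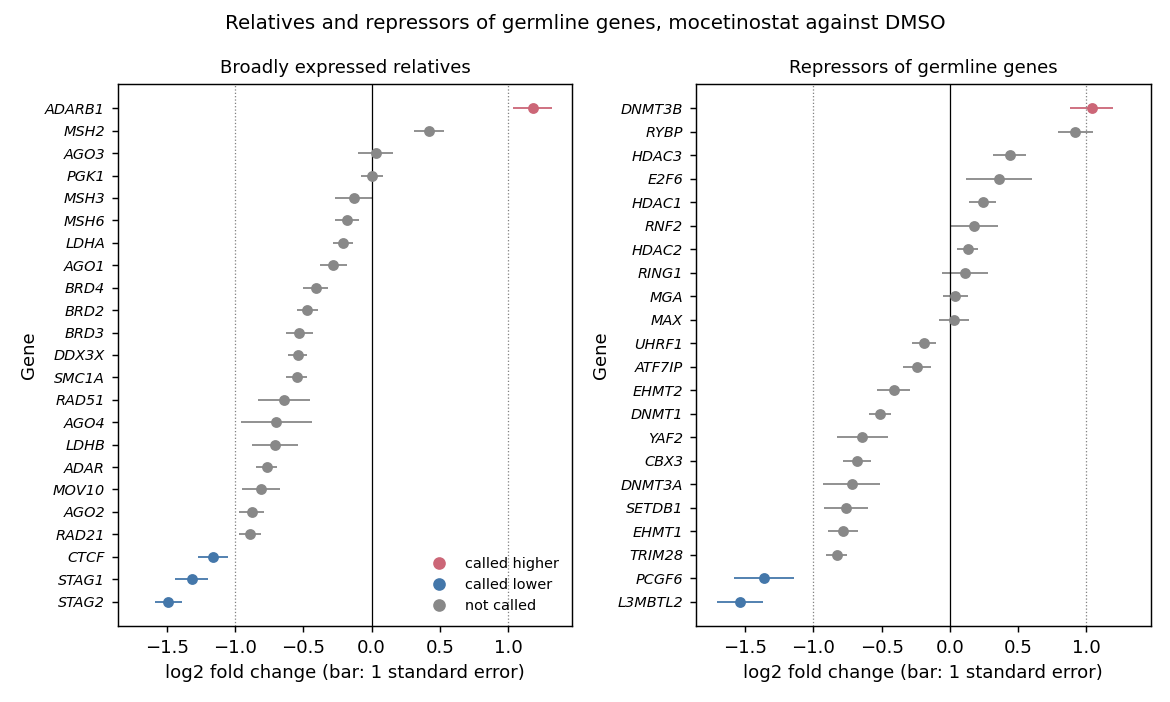
Log2 fold change with bars of 1 standard error (edgeR) for 23 broadly expressed relatives of the germline proteins (left) and for 22 genes of repressor complexes (right); red is called higher, blue called lower, grey not called, and dotted lines mark a log2 fold change of 1 in either direction. STAG2, STAG1 and CTCF on the left and L3MBTL2 and PCGF6 on the right are called lower, and ADARB1 and DNMT3B are called higher.

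A wider list of 85 other autosomal germ cell genes was read the same way. Of them 18 were tested, and 6 were called higher and 1 lower, against 20.2% and 8.18% of all genes tested. In this list 61 genes (71.8%) had fewer than 10 counts in every sample. The 5 higher genes with the smallest p were TDRKH, RFX2, MEIOC, NANOS1 and TDRD7, and BRME1 was the sixth. TDRKH, a mitochondrial Tudor protein of piRNA trimming, was at 13.3, 13.5 and 11.6 CPM with DMSO and 58.5, 52.7 and 53.9 with mocetinostat (log2 fold change of 2.11, SE 0.16, adjusted p = 4.98e-19, edgeR). RFX2, a transcription factor of spermatids and ciliated cells, was at 12.3, 10.6 and 14.9 against 37.1, 49.0 and 36.5 CPM (1.65, SE 0.18, adjusted p = 1.67e-12). MEIOC, which keeps germ cells in meiotic prophase, was at 6.97, 3.96 and 4.57 against 14.9, 19.2 and 17.4 CPM (1.63, SE 0.27, adjusted p = 2.52e-07).

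The conditions did not overlap for these genes. NANOS1, a translational repressor of germ cells, had a log2 fold change of 2.19 (SE 0.41, adjusted p = 2.95e-06, edgeR). With DMSO it was at 1.99, 1.46 and 1.77 CPM, under the filter's 2.01 CPM, so it passed only through the mocetinostat samples. TDRD7, a Tudor protein that is also used in the lens, lay at the threshold with 1.00 (SE 0.20, adjusted p = 8.86e-06, edgeR). TDRD7 was called in 10 of 16 fits and not by DESeq2 (0.99), with the blind filter (0.92), when scaled on all genes without a filter (0.75), or without DMSO replicate 2 (0.92), DMSO replicate 3 (0.83) or mocetinostat replicate 3 (0.91). The lower gene was PLD6, a mitochondrial phospholipase of piRNA biogenesis, at 9.86, 9.37 and 10.3 against 4.16, 2.48 and 2.49 CPM (-1.56, SE 0.34, adjusted p = 5.17e-05, edgeR), and its log2 fold change was -2.39 in libraries thinned to the smallest total. TDRKH and PLD6, both proteins of the mitochondrial surface in this pathway, thus changed in opposite directions. Exon bases are shared with antisense genes for 11.9% of TDRKH and 21.2% of MEIOC, and with a gene on the same strand for 17.5% of PLD6. In the unfiltered fit 72 of the 85 were tested and 11 called higher, against 9.66% of all genes in it, with SHOC1, DDX25, EXD1, LHX8 and PRDM14 in addition. SHOC1, a partner of the crossover machinery, had 5, 0 and 0 counts against 9, 8 and 8 (log2 fold change of 3.81, adjusted p = 1.80e-04). Of 54 genes in this list with at most 3 counts in every DMSO sample, 4 (7.41%) were called higher in the unfiltered fit, beside the 14.2% of protein-coding genes given above.

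Markers of cell identity moved as well. Of 14 chondrocyte markers 8 were tested and 6 called higher, where 20.2% of all genes tested were called higher. Their summed level was 118 to 143 CPM with DMSO and 265 to 308 CPM with mocetinostat. SOX9 was present at 95.5 to 122 CPM with DMSO, COL2A1 was at only 1.46 to 2.8 CPM, and CNMD was at 0 throughout. Of 7 markers of leukocytes, endothelium and epithelium 5 were tested and 4 called higher (EPCAM, CDH1, VWF and PECAM1). Their summed level was 412 to 478 CPM with DMSO and 819 to 846 CPM with mocetinostat, and 2.99 to 5.2 CPM against 41.5 to 47.7 CPM without KRT18, a keratin already abundant with DMSO. At that DMSO level the 4 called genes could not all reach the filter's 2.01 CPM without the mocetinostat samples. Nothing is therefore read from the share called in either list of markers. CD3E was at 0 in every sample and PTPRC at 9 counts or fewer. The part of these markers in the germline values was not tested.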

How the data were processed

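RNA-Seq was performed by the authors on 6 samples of TC28a2 cells with single reads of 100 bases. The deposited table holds raw counts per gene, which the authors made by trimming adapters, removing ribosomal reads, aligning to GRCh38 (Ensembl 98) with STAR 2.6.1d and assigning reads with featureCounts 1.6.4; the strand setting and the treatment of reads shared by genes are not given in the sources used here. Every column matched a sample by name.

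From these counts, edgeR 4.0.16 (R 4.3.3) computed TMM factors, kept genes with filterByExpr (minimum count 10), and fitted treatment alone with its quasi-likelihood test over all genes; p-values were adjusted by Benjamini-Hochberg. They measure the spread between 3 samples per condition. Standard errors given with edgeR are the absolute log2 fold change divided by the square root of the F statistic of that test. The biological coefficient of variation was 9.3%, and replicates differed by more than sampling noise (chi-square per degree of freedom 1.96 to 7.19 over 6 pairs). The procedure was tested on simulated data for mocetinostat against DMSO, where 195 of 195 changed genes that were tested were recovered, with 2 false calls among 13986 genes. The changed genes were drawn from those that pass the filter, with changes beyond the threshold on size and the same dispersion for every gene. Recovery of genes below the filter, of smaller changes or under uneven dispersion was therefore not tested. Numbers of genes expected at equal depth are exact values for drawing reads without replacement, and intervals of pooled ratios are exact conditional intervals for counting error.

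Counts per sample are given for members that were called, passed the filter or had at least 10 counts in some sample. For called relatives and repressors, CPM per sample are given. Of the other germline genes, the 5 higher ones with the smallest p and PLD6, the only one called lower, were picked to be described. CPM per sample in both conditions are given for TDRKH, RFX2, MEIOC and PLD6. The promoters printed were chosen after the values were seen. The members, lists and tests were chosen with earlier results of these data known. Alternatives were DESeq2 1.42.0, RLE factors, library size only, 2 fits without a filter, a filter blind to treatment, at least 10 counts in every sample, the replicate number as a block, the removal of each sample in turn and libraries thinned to a total of 1619344. Positions and exon overlaps are from GENCODE 44, which held 99.5% of the identifiers, and promoters from RefSeq (GRCh38.p14).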

Additional observations from a re-analysis of the deposited data

How the results depend on the processing

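The number of germline genes called higher, 2, depended on how low counts were treated. It was 5 with DESeq2 and without a filter at the scaling of the filtered genes, 4 without a filter at its own scaling, 6 with the filter blind to treatment, and 1 (TEX15) with at least 10 counts in every sample or with thinned libraries, where a single member was tested. Leaving out 1 sample gave 3 to 5, with 7 to 10 members passing the filter: 4 without DMSO replicate 1 or 2, 5 without DMSO replicate 3 or mocetinostat replicate 2, and 3 without mocetinostat replicate 1 or 3. Over all genes, 2842 of 14281 (without mocetinostat replicate 1) to 3216 of 14797 (without DMSO replicate 2) were called higher. Among the members called, TEX14, PIWIL2, TDRD6 and STAG3 passed the filter in these fits only through the mocetinostat samples. Nothing is therefore read from the larger numbers. TEX15 was called in every fit, and 0 members were called lower in any.

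Without a filter, scaling on all genes moved the median log2 fold change of the filtered genes by -0.251. In that fit 2120 genes were lower (1142 otherwise), 2 other germline genes were lower, 0 relatives were higher and 7 lower, and 0 repressors were higher and 5 lower. With at least 10 counts in every sample, 1620 genes were higher and 704 lower, 0 other germline genes were lower and 2 repressors were higher. Other germline genes called higher numbered 10 with DESeq2 and 11 without a filter at the scaling of the filtered genes, and 2 were lower with the blind filter. Leaving out 1 sample gave 1 to 2 other germline genes lower, with 2 without DMSO replicate 2 or mocetinostat replicate 1. The repressor called higher, DNMT3B, was lost with DESeq2, with the blind filter and without DMSO replicate 3 (0 called each); without DMSO replicate 1 it was lost as well and RYBP was called instead. Leaving out 1 sample gave 0 to 1.

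Of the 47 genes, 43 were detected in at least 1 sample of each condition, 27 with DMSO and 28 with mocetinostat at 3 counts or more, and 28 with DMSO and 38 with mocetinostat in thinned libraries.

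Samples with the same replicate number did not deviate together (correlations of -0.016 to 0.012, against -0.028 to 0.026 for other pairs). With the replicate block, 2 members were called higher, as without it, and 2798 genes were higher and 1133 lower. Depth limits most members: the standard error of the log2 fold change reached 2.6 (TDRD9) in the unfiltered edgeR fit and 4.07 (DPPA4) with DESeq2.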

Other observations

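The neighbours of TEX15 within 500000 bases on chromosome 8 were read after its value was seen. PURG, 82794 bases away, had 3, 1 and 3 counts with DMSO against 24, 5 and 9 with mocetinostat (log2 fold change of 3.61, SE 0.64, adjusted p = 1.0e-06, edgeR), and was called higher. In the DMSO libraries 3 counts are 0.272 to 0.616 CPM, so PURG passed the filter of 2.01 CPM only through the mocetinostat samples. TEX15 reached that level in all 3 samples of each condition. PPP2CB, the nearest gene at 17230 bases, was at -0.44 (SE 0.13) and not called, and UBXN8, at 64538 bases, was called lower at -1.14 (SE 0.28, adjusted p = 2.6e-04). GSR was at 0.87, GTF2E2 at 0.23, RBPMS at -0.77 and WRN at -0.79, none of them called, and SMIM18 had 0 counts.

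Cancer-testis genes on the X chromosome, another class that germ cells express and somatic cells silence, had few counts in both conditions. Over 80 genes of 10 families (MAGEA, MAGEB, MAGEC, GAGE, XAGE, PAGE, SSX, SPANX, CT45A and CTAG), 55 counts were found with DMSO and 96 with mocetinostat, with no more than 8 in any gene and sample, and 0 genes passed the filter. Per sample their summed level was 1.99, 3.33 and 2.51 CPM with DMSO (2.61 ± 0.677, n = 3) and 10.7, 13.0 and 8.70 CPM with mocetinostat (10.8 ± 2.16, n = 3), a ratio of the means of 4.14. In the unfiltered fit 40 were tested and 2 were called higher, SSX3 and SPANXN3, against 9.66% of all genes, and 0 lower, against 2.87%. Many of these genes are near-identical copies, and how reads shared among them were counted is not given in the sources used here. This class was added after seeing the data.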
